A study of Rattus norvegicus with 3 samples.

Results

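The intermediate filament genes examined here were the keratins Krt7, Krt8, Krt18, Krt19 and Krt20, vimentin (Vim), desmin (Des) and nestin (Nes). They were taken by gene symbol from the annotation of the array, each had 1 probe set, and they are 8 of the 15037 genes that a named probe set represented. Total RNA of rat kidney was hybridized to 3 Clariom S arrays, 1 each for the groups named Tl 2 days, Tl 5 days and control. The Tl groups were male Wistar rats of 7 weeks given thallium sulfate (Tl) by intraperitoneal injection and examined 2 or 5 days later, and the control group received double distilled water by the same route. The sources do not agree on the treatment or the tissue. The series design states 30 mg/kg daily, the sample labels state 40 mg/kg daily and name spleen, and the study's own text gives a single injection of 30 mg/kg into rats whose kidneys were taken. The methods also place rats that died before the fifth day in the Tl 5 days group, and whether their RNA was on that array is not stated, nor is the number of rats behind each array. The 3 arrays give no replicate error, so no difference was tested, and each is a description of the arrays compared.

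Intermediate filaments are the most extensible of the cytoskeletal polymers and protect cells against mechanical and metabolic stress. Keratins are obligate pairs of a type I and a type II chain, and in simple epithelia such as the kidney tubule the usual pair is type II Krt8 with type I Krt18. Krt7 (type II) and Krt19 (type I) are found in ducts and urothelium, and Krt20 (type I) in urothelium. Vimentin and desmin are type III proteins that assemble with themselves, vimentin in cells of mesenchymal origin and desmin in muscle and mesangial cells. Nestin is a large type IV protein that assembles with vimentin and is found in podocytes. In rodent models of acute tubular injury, tubule cells are known to gain vimentin and to increase Krt8 and Krt18.

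The deposited values are log2 signals, so a difference of 1 is a 2-fold change. The methods of the study do not mention added ERCC RNA. The ERCC controls of the array, whose values were almost the same on every array, served as a guide to dim signals. The 95th percentile of their 63 probe sets was 6.83 on each array. All 8 listed markers of the proximal tubule lay above this level on every array, whereas none of the 5 measured markers of spleen lymphocytes did. A difference over 2-fold was also seen in probe sets that are negative controls by their identifiers. Of these 1153 probe sets, 8.33% were past the limit upward and 11.6% downward at 2 days of Tl, and 10.9% upward and 7.89% downward at 5 days of Tl. Some of them were bright, with a highest value of 19.75, 19.85 and 19.93 on the Tl 2 days, Tl 5 days and control arrays. A value below their 95th percentile is thus not by itself a mark of a dim signal.

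Krt8, Krt18 and Vim were over 2-fold higher in both Tl groups, and no member was over 2-fold lower. At 2 days of Tl this was 3 of 8 members, set against 6.03% of all genes past the limit upward and 4.65% downward. At 5 days of Tl it was again 3 of 8, set against 5.37% upward and 4.87% downward. Both comparisons used the same control array. The members were chosen with results of these arrays known, and nothing particular to them is read from these shares. The median difference over all 8 members was 0.07 at 2 days of Tl and 0.56 at 5 days of Tl, beside a median of 0 over all genes at both times.

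**Figure D1:**
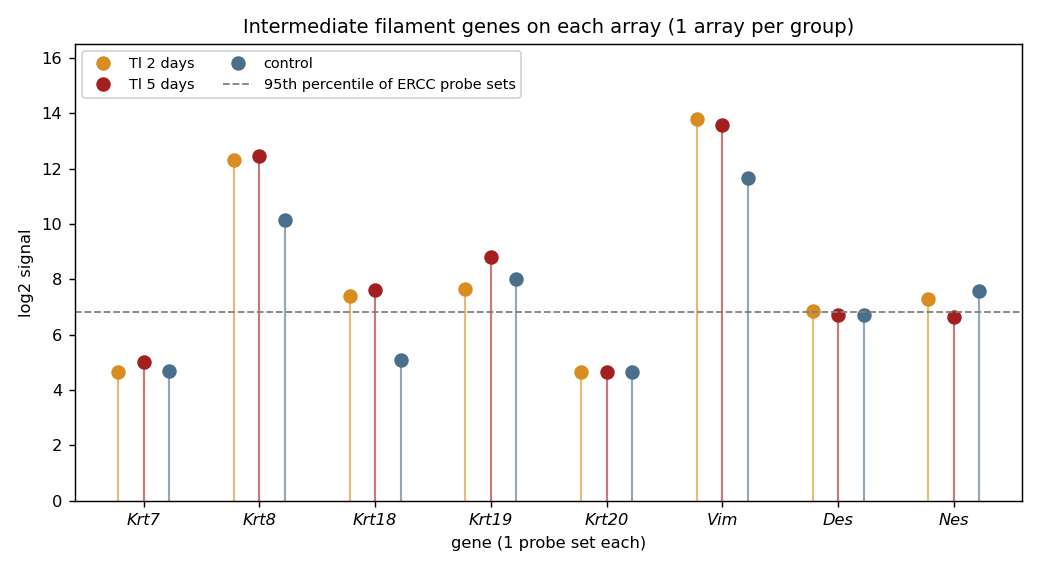
Log2 signal of the 8 genes on the Tl 2 days, Tl 5 days and control arrays, 1 point per array, with the ERCC level of 6.83 as a dashed line. Both Tl points lie above the control point for Krt8, Krt18 and Vim, the 3 Krt20 points are equal, and the heights of different genes cannot be compared because each rests on its own probe set.

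The regulatory sequence upstream of these 3 genes is shown because they were the members that moved together. Of the 8 members, 6 had an entry in the RefSeq promoter table of rat build GRCr8. The 250 bases before the annotated start are given in the 5′ to 3′ direction of the gene, with matches to the motifs searched in capitals.
Krt8, chr7:135010340-135010589, minus strand: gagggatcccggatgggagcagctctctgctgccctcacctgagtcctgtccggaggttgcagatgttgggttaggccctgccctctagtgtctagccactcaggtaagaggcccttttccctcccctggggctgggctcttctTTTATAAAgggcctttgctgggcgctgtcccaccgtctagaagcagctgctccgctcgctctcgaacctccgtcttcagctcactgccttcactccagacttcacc
Krt18, chr7:135035918-135036167, plus strand: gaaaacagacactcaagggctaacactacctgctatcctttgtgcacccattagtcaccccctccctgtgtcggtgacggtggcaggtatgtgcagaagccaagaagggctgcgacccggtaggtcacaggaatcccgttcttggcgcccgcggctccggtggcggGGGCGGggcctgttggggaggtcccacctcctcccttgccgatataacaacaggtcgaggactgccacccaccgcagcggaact
Vim, chr17:81577011-81577260, plus strand: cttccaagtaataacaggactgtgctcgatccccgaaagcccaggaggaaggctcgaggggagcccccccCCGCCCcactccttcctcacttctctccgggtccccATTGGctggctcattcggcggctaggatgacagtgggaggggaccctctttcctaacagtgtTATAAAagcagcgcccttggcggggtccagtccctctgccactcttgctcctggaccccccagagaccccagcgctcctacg

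The motifs were searched on both strands. A match is one of letters only, and whether any of them acts in the gene was not tested. The TATA motif, searched as TATAAA, began 104 bases before the annotated start of Krt8, where it overlaps its own reverse match, and 82 bases before that of Vim. It was found in 12.9% of 33469 rat promoter windows of this length and not in that of Krt18. A GC box, searched as GGGCGG, was present in Krt18 and Vim and in 30.5% of all windows. The Vim window also held the CCAAT motif, which occurred in 34% of all windows. None of these 3 windows held an AP-1 motif (TGANTCA) or a STAT motif (TTCNNNGAA), which occurred in 6.34% and 7.67% of all windows. These traits were not particular to the members that were higher. Krt20 held TATAAA 49 bases before its start, and Des and Nes held 3 and 2 GC boxes. Krt20, Des and Nes also lacked the AP-1 and STAT motifs. The absence of these letters says nothing about binding elsewhere, and the windows of Krt8, Krt18 and Vim shared no motif of those searched. Krt8 and Krt18 lie on chromosome 7 with 0 protein-coding genes between them in the RefSeq annotation, although Krt18 is a type I keratin and the type I keratins Krt19 and Krt20 lie on chromosome 10.

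Krt8, the type II partner of the simple epithelial pair, had log2 signals of 12.31 on the Tl 2 days array and 12.45 on the Tl 5 days array, against 10.13 on the control array. Both Tl values were higher, by 2.18 and 2.31 on the log2 scale, which are 4.52-fold and 4.97-fold. Among all genes, 220 had a larger positive difference at 2 days of Tl and 137 at 5 days of Tl. No ERCC probe set reached the level of Krt8 on any array. The 95th percentile of the negative control probe sets was 11.04, 10.99 and 10.94 on the Tl 2 days, Tl 5 days and control arrays, so both Tl values of Krt8 lay above it and the control value below it. Differences at least as large occurred in 9 of the 1153 negative control probe sets at 2 days of Tl and in 21 at 5 days of Tl.

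Krt18, the type I partner of Krt8, had log2 signals of 7.39 and 7.61 on the Tl 2 days and Tl 5 days arrays, against 5.08 on the control array. The differences of 2.31 and 2.53 are 4.96-fold and 5.77-fold, and close to those of its partner. The size of the Krt18 difference is less certain than that of Krt8, because 10 of the 63 ERCC probe sets reached or exceeded its control value. With every value below 6.83 set to that level, the differences were only 0.57 and 0.78, under the 2-fold limit, whereas those of Krt8 did not move. At least as large a difference was seen in 8 negative control probe sets at 2 days of Tl and in 15 at 5 days of Tl. Every Krt18 value lay below the 95th percentile of the negative control probe sets of the same array.

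Krt19, a small type I keratin that lacks a tail domain and is typical of ducts, had 7.65 on the Tl 2 days array and 8.82 on the Tl 5 days array, against 8.02 on the control array. It was thus below the control array at 2 days (-0.38) and above it at 5 days (0.79), both within the 2-fold limit. Compared directly, the Tl 5 days array was 2.25-fold higher than the Tl 2 days array (1.17 on the log2 scale). Krt19 was the 1 member of 8 past the limit in this comparison, set against 2.21% of all genes upward and 3.07% downward. In the same comparison 101 negative control probe sets had a positive difference at least as large, so such a difference was not rare among them. Each of its values lay above 6.83, but below the 95th percentile of the negative control probe sets of the same array.

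Krt7, a type II keratin of ducts and urothelium, had 4.65 on the Tl 2 days array and 5.00 on the Tl 5 days array, against 4.67 on the control array. All 3 values were dim, below 6.83, and the identifier of this probe set marks it as unmapped to a chromosome. Krt20, a type I keratin of umbrella cells in the urothelium and of intestinal epithelium, had the same value of 4.65 on all 3 arrays. That exact value was shared by 10 probe sets on the Tl 2 days array, 7 on the Tl 5 days array and 6 on the control array. Values equal on all 3 arrays were found for 1742 genes, among them bright ones such as Rdx (13.85) and Stub1 (8.78). Equality is thus not by itself a mark of a dim signal. Krt20 lay below 6.83 on every array, and its equal values are not read as an absence of change.

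Vimentin had log2 signals of 13.79 on the Tl 2 days array and 13.59 on the Tl 5 days array, against 11.64 on the control array. The differences were 2.15 and 1.95, or 4.43-fold and 3.85-fold. Vim thus stood higher in both Tl groups, and its 3 values, unlike the control value of Krt8, were above the 95th percentile of the negative control probe sets of the same array. A positive difference at least as large was seen in 9 of these probe sets at 2 days of Tl and 29 at 5 days of Tl, and 223 and 202 genes exceeded it.

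Desmin, the filament protein of smooth muscle and mesangial cells, was at 6.85 on the Tl 2 days array and 6.71 on the Tl 5 days array, against 6.71 on the control array. The Tl 5 days and control values were identical, which also occurred for bright genes and is not read further. All 3 values lay near the ERCC level of 6.83. Nestin had 7.28 on the Tl 2 days array and 6.65 on the Tl 5 days array, against 7.58 on the control array. Its differences of -0.29 and -0.92 did not pass the 2-fold limit, and the value at 5 days was below 6.83. Every Des and Nes value lay below the 95th percentile of the negative control probe sets of the same array. Of the 2 type III members only Vim was thus over 2-fold higher, and Nes, which can assemble with vimentin, was not. The 5 days difference of Nes lay close to the limit, and stayed within it after quantile normalization and after centring.

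**Figure D2:**
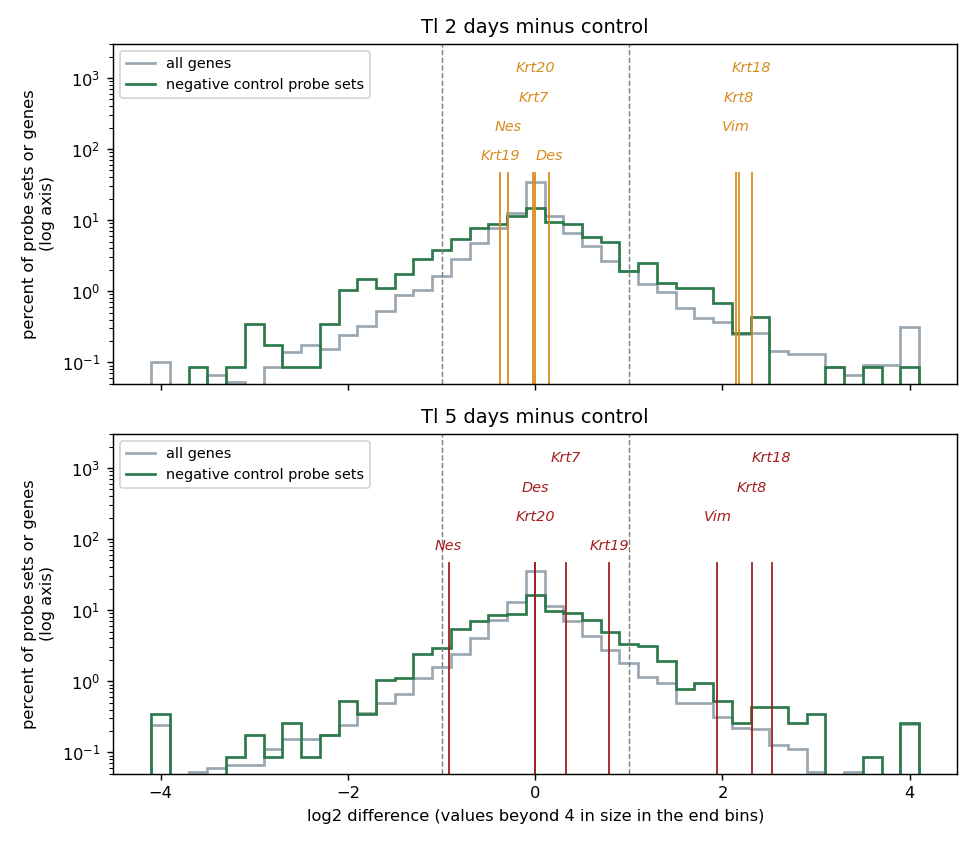
Percent of all genes and of negative control probe sets (log axis) by log2 difference from the control array at 2 days of Tl (top) and 5 days of Tl (bottom), with the members as vertical lines and the 2-fold limits dashed. Krt8, Krt18 and Vim lie between 1.95 and 2.53 in both panels, where some negative control probe sets also lie, and the other members lie within the limits.

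The wider family was set beside the members. Of 66 listed intermediate filament genes 49 were measured, and 40 of them stayed at or below 6.83 on all arrays. The genes above that level on at least 1 array were Krt8, Krt18, Krt19, Krt80, Vim, Des, Nes, Lmna and Lmnb1, of which Krt80 is named after its values were seen. Of the 19 measured type I keratins Krt18 alone was over 2-fold higher in each Tl group, and 0 were lower. Of the 16 measured type II keratins this was true of Krt8 alone, also with 0 lower. Krt80, a type II keratin, followed the course of Krt19, with 8.19 on the Tl 2 days array and 9.32 on the Tl 5 days array, against 8.57 on the control array. The epidermal and hair keratins that were measured gave dim signals, and a difference between dim signals carries little information.

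Among the measured filament genes that are neither keratins nor members, the lamins had the largest differences at 2 days. Lamins are the nuclear intermediate filaments, and 2 of the 3 listed were measured. Lmnb1, a B-type lamin, had 10.81 on the Tl 2 days array and 8.95 on the Tl 5 days array, against 7.59 on the control array, differences of 3.22 and 1.36. Lmna, which encodes lamins A and C, had 11.02 and 10.36, against 9.65, differences of 1.37 and 0.71. Both lamins were highest at 2 days, a course that Krt8 and Krt18 did not share, since their values at 5 days were slightly above those at 2 days. Vim, with 13.79 at 2 days and 13.59 at 5 days, was slightly higher at 2 days. Among the 6 type IV genes, Synm (synemin, a linker of vimentin and desmin filaments) had 6.10 and 4.59, against 5.63, all of them dim. It was the only 1 of the 6 past the limit, at -1.05 in the Tl 5 days group. Of the type III genes, the glial Gfap and the neuronal Prph were below 6.83 on every array, as were both lens filament genes.

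**Figure D3:**
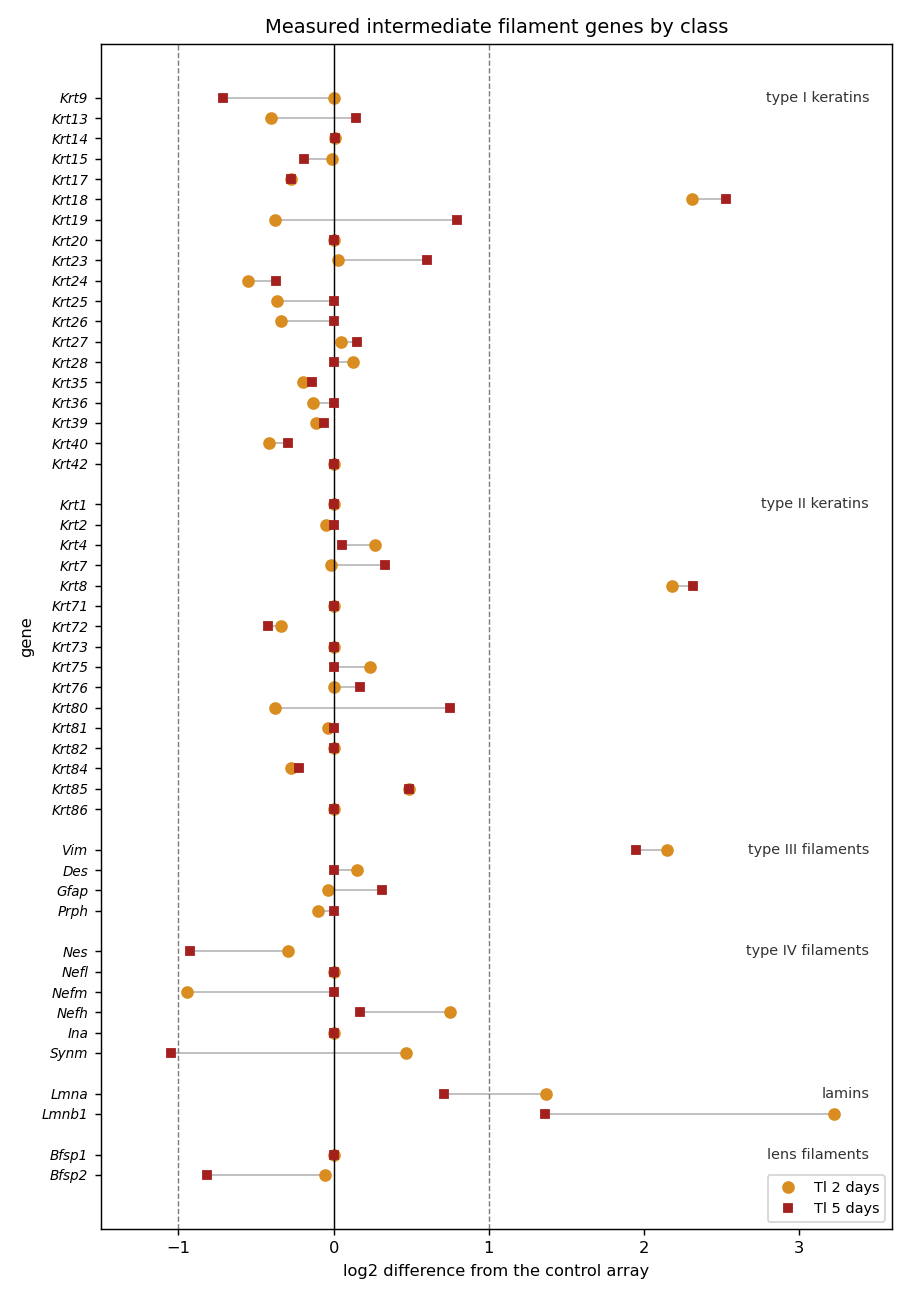
Log2 difference from the control array of the 49 measured intermediate filament genes, by class, with circles for Tl 2 days, squares for Tl 5 days and the 2-fold limits dashed. Krt8, Krt18, Vim and Lmnb1 lie right of the upper limit in both Tl groups, Lmna does so in the Tl 2 days group and Synm lies left of the lower limit in the Tl 5 days group.

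Proteins that bind keratins were compared next. Of the 7 listed plakins, which link filaments to junctions and to other polymers, 3 were measured. Ppl (periplakin) had 9.14 on the Tl 2 days array and 9.11 on the Tl 5 days array, against 7.73 on the control array, or 2.65-fold and 2.61-fold. Plec (plectin), the crosslinker of keratin and vimentin networks, had 10.88 and 11.25, against 9.90, which was 1.98-fold and 2.55-fold. The third, Evpl, was below 6.83 on all arrays. The median difference of these plakins was 0.99 at 2 days of Tl and 1.35 at 5 days of Tl. Dsp (desmoplakin), which anchors keratin at desmosomes, was not analysed here.

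Of 13 desmosome genes 7 were measured, and 2 were over 2-fold higher in each Tl group with 0 lower. Dsc2 (desmocollin 2), a desmosomal cadherin, had 8.80 and 8.74 on the Tl arrays, against 6.56 on the control array, which was below 6.83. Perp, a membrane protein of desmosomes, had 12.87 and 12.99, against 11.87, just past the limit at 2 days (2.01-fold). The plaque proteins Jup (12.70 and 12.18, against 12.50) and Pkp2 (11.67 and 11.67, against 11.65) stayed within the limit. The list as a whole had median differences of 0.15 and 0. Of 7 measured chaperones and binding proteins of filaments, Cryab, a small heat shock protein that binds desmin and vimentin, stood alone past the limit, at 2 days only, with 13.77 at 2 days of Tl and 12.86 at 5 days of Tl, against 12.24 on the control array.

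Actin filaments share junctions and linkers with intermediate filaments, and 22 of 23 listed actin cytoskeleton genes were measured. Past the limit upward were 9 of them at 2 days of Tl and 6 at 5 days of Tl, with 0 downward at either time. The median difference was 0.86 at 2 days of Tl and 0.62 at 5 days of Tl. At 5 days it was 0.57 both after quantile normalization and after centring, and -0.01 relative to Gapdh, a scale on which the median of all genes was at -0.63. Actn1 (alpha-actinin 1, a crosslinker of stress fibres) had the largest differences of this list, 2.55 and 2.48. Tagln2 (an actin-binding protein) differed by 2.39 and 2.10, Tpm4 (a tropomyosin) by 2.29 and 1.36, and Myh9 (a non-muscle myosin heavy chain) by 2.18 and 1.06. Tpm4 and Myh9 thus had a smaller difference at 5 days than at 2 days, whereas Actn1, like Krt8 and Vim, was nearly the same at both times.

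Markers of the cells that could carry these transcripts moved too, and their part in the results was not tested. All 8 proximal tubule markers were measured, with 2 past the limit downward at 2 days of Tl, and 2 upward and 2 downward at 5 days of Tl. The log2 of their summed signal was 19.41 and 19.53, against 20.40 for control. The transporter Slc7a13, the brightest of them on the control array, had 16.62 and 13.69, against 19.14. The median difference of the list was only -0.39 and -0.04, with 4 of 8 markers above control at 5 days. In tissue RNA, fewer cells of a type and less RNA per cell cannot be told apart. Of 8 markers of collecting duct principal cells, where keratins are plentiful, 7 were measured. At each time 5 were past the limit downward with 0 upward, but they were not the same 5. Only Aqp2, Avpr2 and Hsd11b2 were past it at both times. The summed signal of these duct markers was 13.49 at 2 days of Tl and 13.44 at 5 days of Tl, against 14.74 for control, opposite in direction to Krt8 and Krt18. The marker Avpr2 was dim on all arrays. The 6 measured urothelial markers of 9 all lay below 6.83 on every array, uroplakins included, with 0 past the limit. Their summed signal was 6.40 and 6.36, against 6.37 for control, beside the dim Krt7 and Krt20.

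Vimentin is also made by leukocytes, fibroblasts and endothelium. All 7 macrophage markers were measured, and 3 were over 2-fold higher in each Tl group with 0 lower. The log2 of their summed signal was 16.49 at 2 days of Tl and 17.82 at 5 days of Tl, against 15.77 for control, nearly the level of Lyz2 alone (16.48 and 17.81, against 15.75). Of these markers Adgre1 and Cd163 lay below 6.83 on all arrays. Each had the same value on all 3 arrays, which is not read as an absence of change. All 6 fibroblast markers were measured, with 2 past the limit upward at 2 days of Tl, 1 at 5 days of Tl and 0 downward. Their summed signal was 15.64 and 15.76 on the Tl arrays, against 14.68 for control, with Dcn (decorin) the brightest at 14.88 and 15.18, against 13.74. The median difference of the list was 0.81 at 2 days and only 0.11 at 5 days, where 3 markers were above control, 2 below it and 1, the dim Lum, equal. Endothelial markers, of which 6 of 7 were measured, went the other way, with 0 higher at either time and 3 over 2-fold lower at 5 days of Tl. Their summed signal was 13.87 and 13.02, against 14.30 for control, the median difference was -0.33 and -0.87, and Vwf was dim throughout.

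For nestin and desmin the matching cells are podocytes, mesangial cells and smooth muscle. Of 7 podocyte markers 5 were measured, and 0 were past the limit at 2 days of Tl while 2 were over 2-fold lower at 5 days of Tl. Their summed signal was 15.21 and 13.84, against 15.21 for control. This is close to the level of Podxl alone (podocalyxin, the main sialoprotein of podocytes), which had 15.07 and 13.63, against 15.09. The median difference of the list was -0.02 at 2 days and -0.78 at 5 days, where Nphs1 (-0.62) and Ptpro (-0.15) stayed within the limit. Nestin was lowest on the Tl 5 days array, and a link to podocytes was not tested. All 8 markers of smooth muscle and mesangium were measured, with 1 past the limit upward at 2 days of Tl, and 1 upward and 3 downward at 5 days of Tl. Their summed signal was 13.28 and 12.38, against 12.80 for control, while desmin was at or next to its control value. Within this list Cnn1 and Actg2 were below 6.83 on all arrays.

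**Figure D4:**
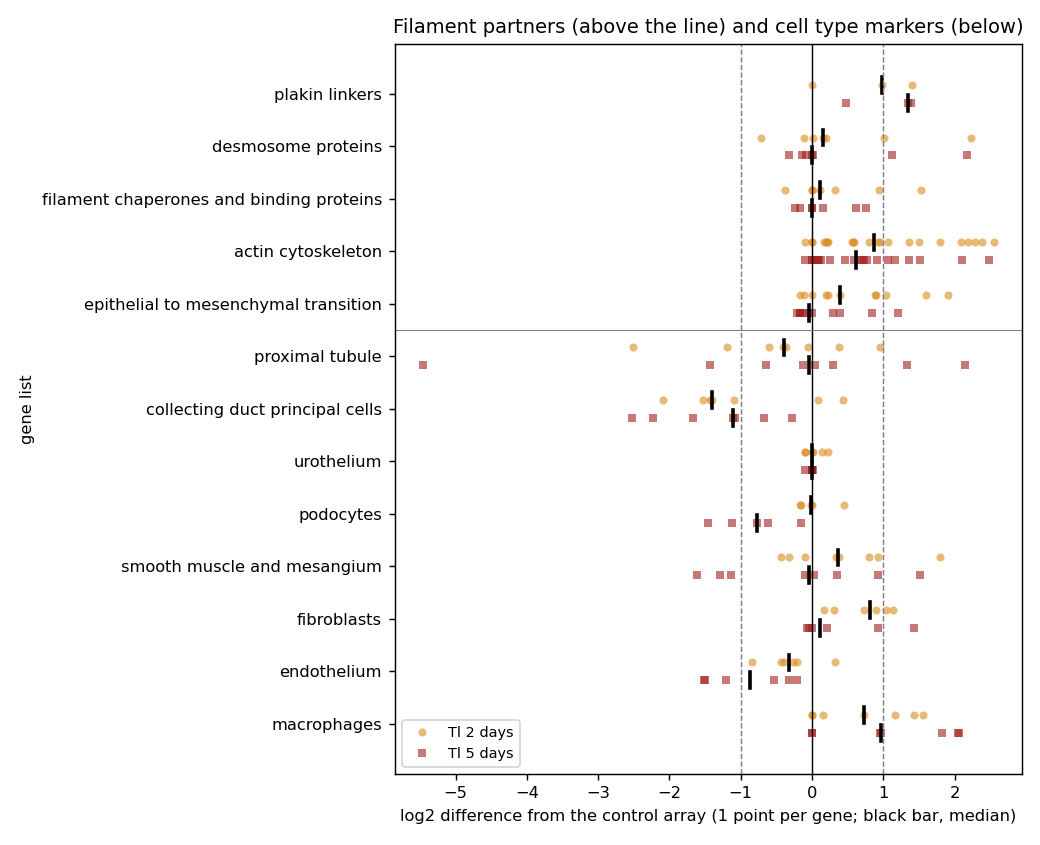
Log2 difference from the control array of genes that act with intermediate filaments (above the line) and of cell type markers (below the line), 1 point per gene, with circles for Tl 2 days, squares for Tl 5 days, black bars for medians and the 2-fold limits dashed. The collecting duct list lies mostly left of 0 (medians of -1.40 and -1.11), the urothelial list at 0, and the macrophage list right of 0 (medians of 0.72 and 0.97).

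The genes whose pair of differences from control lay nearest to that of Krt8, Krt18 and Vim were sought among 7517 genes whose highest signal over the 3 arrays was above the median of that measure, by Euclidean distance over these 2 comparisons. Nearest to Krt8 were Nrg1 (neuregulin 1, a ligand of ErbB receptors) at 2.12 and 2.27, Zdhhc18 (a protein palmitoyltransferase) and Ier3 (an immediate early gene), at distances of 0.07, 0.13 and 0.14. For Krt18 the search gave Rcn1 (a calcium-binding protein of the endoplasmic reticulum), Lgals3 (galectin-3) and Actn1, but it used differences from a dim control value, which the floor at 6.83 reduced to 0.57 and 0.78, so the nearness carries no weight. Nearest to Vim were B4galt6 (a galactosyltransferase), Cd24 (a surface glycoprotein of epithelial progenitors) and Sirpa (a receptor of phagocytes), with distances of 0.02, 0.07 and 0.08. With 3 arrays, such nearness rests on only 2 values per gene that share 1 control array.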

How the data were processed

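RNA was measured on 3 Clariom S arrays by the authors, who used Transcriptome Analysis Console. Its version, the summarization and the normalization are not given in the sources used here. What the authors deposited is a log2 signal for each probe set on each array. The base was taken from the range of the values and from the folds stated for Myc in the study, which lie close to 2 raised to the difference. The table held 24834 probe sets. Of these, 15049 had 1 gene symbol in the platform annotation, 0 had several and 9785 were unnamed here. Probe sets of a gene were averaged (10 genes), giving 15037 genes.

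Samples were grouped by title. Differences of log2 values were computed, and a difference over 2-fold was counted. With 1 array per group no p-value exists, and precision is limited by how few arrays there are. The counting was checked on artificial arrays with known shifts. Members, lists and alternatives were chosen with earlier results of these data known. All members are named, and from each list other than the cell type markers up to 4 genes past the limit with the largest difference. Genes a list is known for are added, as are genes of the injured tubule list that did not stay higher. For members past the limit at both times, the 3 nearest genes are named. Promoters were read from RefSeq (GRCr8). The alternatives were quantile normalization, centring, scaling to Gapdh, a floor, a filter removing genes whose highest signal fell under percentile 40, use of the brightest probe set in place of the mean, and limits of 1.5-fold and 3-fold. Computation was in Python 3.11.15 with pandas 2.3.3 and numpy 2.4.6, and plotting in matplotlib 3.10.9.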

Additional observations from a re-analysis of the deposited data

Results flagged for a closer look

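Among the genes named in the text, those were marked for a closer look where the difference from the control array had opposite signs in the Tl 2 days and Tl 5 days groups. With 1 array per group this difference between the groups was not tested. Krt19 was at -0.38 and 0.79, so that the Tl 5 days array exceeded the Tl 2 days array by 1.17. Krt7 was at -0.02 and 0.33, a gap of 0.35 between dim signals. Synm was at 0.46 and -1.05, a gap of -1.51, also between dim signals. Col1a1, a fibrillar collagen chain, was at 1.03 and -0.04, a gap of -1.08. Krt80 was at -0.38 and 0.75, a gap of 1.12, and Jup at 0.20 and -0.32, a gap of -0.52. Prom1 was at 0.13 and -1.44, a gap of -1.57. Gfap was at -0.04 and 0.31, a gap of 0.35, and Snai1 at 0.23 and -0.17, a gap of -0.40, both between dim signals.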

How the results depend on the processing

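No paired analysis was possible because each group has 1 array and the labels give no replicate numbers. A difference was taken as moved when it changed by over 1.5-fold, and a count likewise. Of the recomputed member differences 120 stayed within this tolerance and 18 did not, and none past the 2-fold limit changed sign. Relative to Gapdh, whose own signal was 0.65 and 0.63 higher in the Tl 2 days and Tl 5 days groups, every difference shifted by that amount, and the median of all genes was at -0.65 and -0.63. On that scale the differences in the Tl 2 days and Tl 5 days groups were 1.53 and 1.68 for Krt8, 1.66 and 1.89 for Krt18, 1.498 and 1.31 for Vim, -1.03 and 0.16 for Krt19, -0.67 and -0.30 for Krt7, -0.65 and -0.63 for Krt20, -0.50 and -0.63 for Des and -0.94 and -1.56 for Nes. Krt8, Krt18 and Vim stayed past the limit, and Krt19 at 2 days and Nes at 5 days passed it downward through the shift that all genes share. A floor at the ERCC level reduced Krt18 to 0.57 and 0.78. The number of members past the limit in the Tl 5 days group was 5 at 1.5-fold (Krt19 and Nes added). Between the Tl groups it was 2 at 1.5-fold and 0 at 3-fold. For all genes the count was 3167 and 2766 relative to Gapdh, 3417 and 3185 at 1.5-fold, and 660 and 617 at 3-fold in the Tl 2 days and Tl 5 days groups, against 1605 and 1539. Between the Tl groups 2112 genes passed 1.5-fold and 293 passed 3-fold, against 794. Centring, which moved the median difference of all genes to -0.12 in the Tl 2 days group, turned 906 higher and 699 lower into 752 and 874. Relative to Gapdh 375 were higher and 2792 lower there, and 310 and 2456 in the Tl 5 days group, against 807 and 732. The filter on dim genes removed Krt7 and Krt20, which have no value there. Dim signals limit Krt7, Krt18, Krt20, Des and Nes.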

Other observations

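Of 13 genes listed for the epithelial to mesenchymal transition, in which epithelial cells gain vimentin, 11 were measured. Their median difference from the control array was 0.39 at 2 days of Tl and -0.04 at 5 days of Tl. With the filter on dim genes it was 0.89 and 0.14. The list mixes the epithelial Cdh1 with mesenchymal genes, and 4 of the 11 were dim on all arrays, so the median does not measure the transition. Past the 2-fold limit upward were 3 at 2 days of Tl and 1 at 5 days of Tl, with 0 downward. Fn1 (fibronectin), a matrix protein, had 14.78 at 2 days of Tl and 14.08 at 5 days of Tl, against 12.87 for control. S100a4, a calcium-binding protein of fibroblasts and leukocytes, had 6.45 and 5.14, against 4.85, all of them dim. The transcription factors Snai1, Snai2 and Twist1 were below 6.83 on every array, and the epithelial cadherin Cdh1 had 14.97 and 14.93, against 14.09. Of the 10 genes listed for the injured tubule 9 were measured, with 7 past the limit upward and 0 downward at 2 days of Tl, and 6 upward and 1 downward at 5 days of Tl. Havcr1 (kidney injury molecule 1) had 18.47 and 18.46, against a dim 5.52 for control, and Lcn2 (lipocalin 2) 13.36 and 13.92, against a dim 5.47. Clu (clusterin) had 17.81 and 17.31, against 9.83, and Spp1 (osteopontin) 19.11 and 18.48, against 12.62. The gene past the limit downward was Prom1, with 12.90 and 11.34, against 12.78. Vcam1 was past the limit at 2 days only, and Sox4 at neither time.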
